A study of Mus musculus with 9 samples.

Results

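Pvr and the nectins Nectin1, Nectin2 and Nectin3 were examined in CT26, a mouse colorectal carcinoma line. They are 4 of the 53796 genes in the expression table, found by gene symbol, and all 4 had a row. The set was chosen by family name around Pvr, and Pvr was selected on its FPKM, whose lower level in K262Q than in WT cells was already known; since every comparison of Pvr reuses those WT or K262Q values, its differences are described below without a test. In every one of the 9 samples the cells' own Pd-l1 (gene Cd274, the ligand of the T cell receptor PD-1) had been knocked out. A retroviral vector was then added, and cells that took it up were selected with puromycin as stable polyclonal lines. KO cells carried the control vector, WT cells wild-type mouse Pd-l1 and K262Q cells mouse Pd-l1 with glutamine in place of a lysine, with 3 samples in each group. Each group thus had its own vector and selection, so an effect of Pd-l1 cannot be told apart from a difference between lines. The promoter that drives Pd-l1 in the vector is not given in the sources used here. Whether a group's 3 samples came from separate cultures is not stated, and the p-values therefore reflect only sample-to-sample spread, which may be technical.

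Pvr (CD155, nectin-like molecule 5) and the nectins are immunoglobulin-type adhesion proteins. Nectins on neighbouring cells bind each other and are tied inside the cell to actin by afadin, whereas Pvr, often raised on tumour cells, binds nectin-3 in trans and does not bind afadin. The same molecules are read by lymphocytes: CD226 activates T and NK cells on binding Pvr or nectin-2, TIGIT inhibits them on binding Pvr and, less strongly, nectins, CD96 binds Pvr, and PVRIG binds nectin-2.

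Values are FPKM, fragment counts scaled by transcript length and by library depth, as deposited. The spacing of low values implied that, approximately, 35.8 to 37.7 fragments lay behind each 1 FPKM for a transcript of 2000 nt. Cd274 measured 0.357 to 0.982 FPKM in KO, 35.4 to 38.0 FPKM in WT, against 37.6 to 41.3 FPKM in K262Q. As for the labelled carcinoma identity, the epithelial genes Epcam and Cdh1 were listed at 0 in every library but KO replicate 1, where Epcam read 0.0546 FPKM, while Krt18 measured 26.1 to 35.7 FPKM and Krt20 10.3 to 14.6 FPKM. The other epithelial markers, Krt8, Krt19, Cdx2 and Vil1, averaged under 1 FPKM. The 8 mesenchymal and fibroblast markers, mostly Vim, summed to 3115 to 3590 FPKM. Among them, Dcn and Thy1 were listed at 0 in all 9 libraries and Pdgfra measured 0.747 to 1.87 FPKM. The 8 epithelial markers summed to 47.4 to 50.04 FPKM in KO, 43.3 to 44.9 FPKM in WT, against 40.03 to 41.6 FPKM in K262Q. Of the 2 tested, Krt18 fell in K262Q against KO (-0.36 ± 0.05, limma adjusted p = 0.0360, held in 2 of 9 fits without a library), and the part of this shift in the Pvr result was not tested. The 15 immune markers summed to 0.276 to 1.20 FPKM per library, with Ncr1, Klrb1c and Adgre1 among those listed at 0 in all 9, and the 4 endothelial markers summed to at most 0.0602 FPKM.

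All 4 members are protein-coding genes (GENCODE, GRCm38). Pvr (ENSMUSG00000040511) lies on the minus strand of chromosome 7 from 19903578 to 19921160, and Nectin2 (ENSMUSG00000062300) on the same strand from 19716644 to 19750483, 153 kb away. Nectin1 (ENSMUSG00000032012) lies on the plus strand of chromosome 9 from 43743984 to 43807461, and Nectin3 (ENSMUSG00000022656) on the minus strand of chromosome 16 from 46387706 to 46498525. Exact sequence shared between members was short: the longest exact stretch that any Pvr transcript shared with a Nectin2 transcript was 12 nt, and with a Nectin3 transcript 14 nt. It was 12 nt for Pvr and Nectin1, 13 nt for Nectin1 and Nectin2, and 14 nt for Nectin3 with either. The first 2 stretches are shown because Pvr and these genes are compared below.
Pvr and Nectin2: actggagcacga
Pvr and Nectin3: ttcattatatttta

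RefSeq promoter windows (GRCm38.p6, 250 bases before to 50 after the start) were held for 2 of the 4 members, Nectin2 and Nectin3; Pvr and Nectin1 had no entry. They are printed since these genes differed widely in level, Nectin2 being measured at 9.04 FPKM or more in every library and Nectin3 being at or near 0. The windows are chr7:19749524-19749823 and chr16:46496918-46497217, both read 5′ to 3′ on the minus strand. Each lies inside the GENCODE span given above for its gene. The RefSeq start used is thus downstream of the outermost GENCODE start. Capitals mark matches, on either strand, to AP-1 (TGANTCA), a cAMP response element (TGACGTCA), a GC box (GGGCGG) and the GLI core (ACCACCC).
Nectin2: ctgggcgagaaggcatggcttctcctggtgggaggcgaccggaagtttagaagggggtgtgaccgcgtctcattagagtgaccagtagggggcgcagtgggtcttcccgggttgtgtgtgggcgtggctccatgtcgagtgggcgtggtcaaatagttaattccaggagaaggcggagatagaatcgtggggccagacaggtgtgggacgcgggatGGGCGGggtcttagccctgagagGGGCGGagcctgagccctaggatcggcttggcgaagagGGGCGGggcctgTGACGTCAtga
Nectin3: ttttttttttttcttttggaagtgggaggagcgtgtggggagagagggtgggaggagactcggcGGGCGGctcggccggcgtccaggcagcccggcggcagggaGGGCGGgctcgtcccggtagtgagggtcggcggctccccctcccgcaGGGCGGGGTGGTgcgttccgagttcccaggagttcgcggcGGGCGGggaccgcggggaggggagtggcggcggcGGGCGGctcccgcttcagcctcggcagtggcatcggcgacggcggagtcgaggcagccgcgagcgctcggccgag
The Nectin2 window held 20 CpG dinucleotides, 3 GC boxes and 1 cAMP response element at bases 290 to 297, a match found in 1.79% of the 32851 windows of that length. The Nectin3 window held 40 CpG dinucleotides, as many as or more than 96.5% of windows, with 5 GC boxes (present in 35.7% of windows) and 1 GLI core at bases 157 to 163, whose first base is also the last of a GC box. The GLI core was present in 4.61% of windows. AP-1 was matched in neither, and in 7.81% of all windows. A match describes letters and no binding site.

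On the per-length FPKM scale Pvr stood far above the nectins in every library. Of the summed FPKM of the 4 genes, Pvr made up 81.5% to 84.7% in KO, 82.3% to 85.1% in WT, against 74.1% to 79.5% in K262Q libraries. By mean level over the 9 samples Pvr ranked 1956 and Nectin2 6936 among the 12212 genes averaging 1 FPKM or more, which are the genes tested. Nectin1, with a mean of 0.891 FPKM, and Nectin3 fell below that filter, so that 2 of the 4 members entered the tests.

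**Figure D1:**
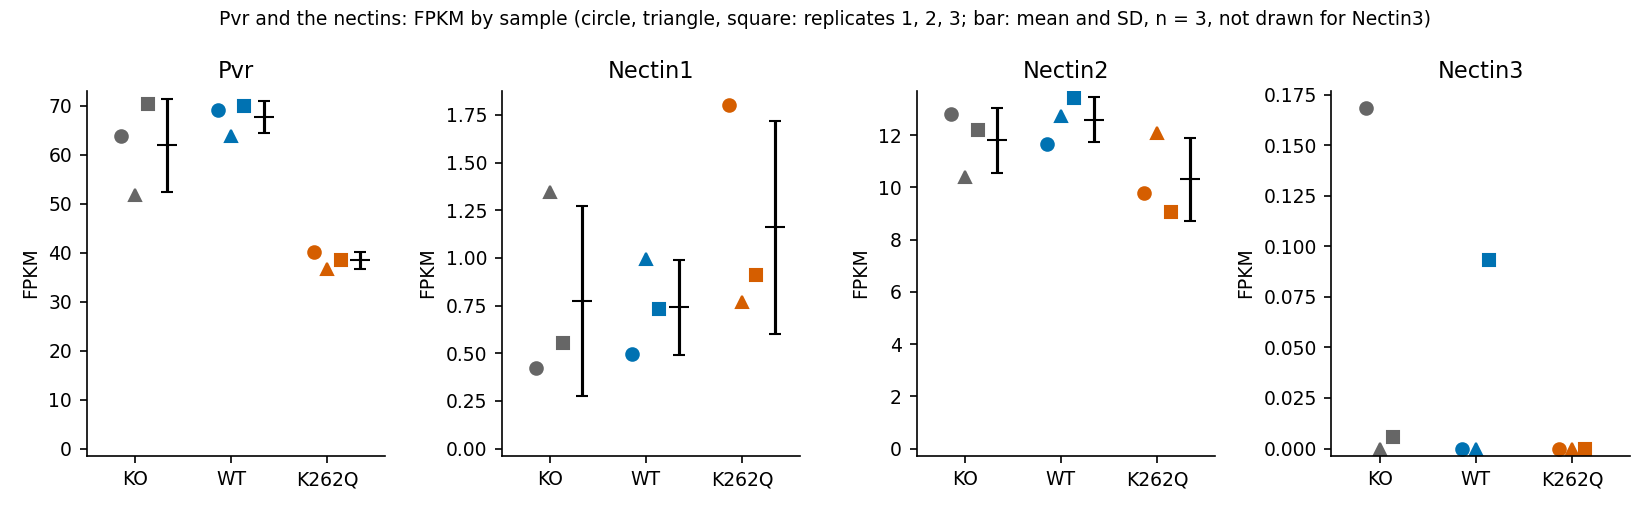
FPKM of Pvr, Nectin1, Nectin2 and Nectin3 (vertical axes, each with its own scale) in KO, WT and K262Q samples; symbols are replicates and black bars the mean and SD of 3, not drawn for Nectin3. The 3 K262Q samples lie between 36.7 and 40.1 FPKM of Pvr, under all 6 others, while the groups overlap in the other 3 genes.

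Pvr, the ligand of CD226, TIGIT and CD96, was lowest in K262Q cells. It measured 63.8, 51.7 and 70.4 FPKM in KO replicates 1, 2 and 3, then 69.2, 63.9 and 69.9 FPKM in WT, against 40.1, 36.7 and 38.5 FPKM in K262Q. Every K262Q sample was below every other sample, KO replicate 2 was the lowest of the rest, and the KO and WT ranges overlapped. Between K262Q and WT the mean went from 67.7 ± 3.30 to 38.5 ± 1.71 FPKM (SD, n = 3), a ratio of 1.76, or -0.80 ± 0.11 on the log2(FPKM + 1) scale (SE). Because this difference chose the gene, it is a description. On the same scale 358 of the 12212 tested genes had a difference at least as low.

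The comparison of K262Q with KO reuses the K262Q values that chose the gene, so it is a description too. From a KO mean of 61.9 ± 9.46 FPKM (SD, n = 3), the difference was -0.66 ± 0.11 on the log2(FPKM + 1) scale (SE), and 397 of the 12212 tested genes had one at least as low. It was -0.79 without KO replicate 2, -0.64 without KO replicate 1 and -0.57 without KO replicate 3. Between WT and KO, the comparison of lines with and without added Pd-l1, the Pvr difference was 0.14 ± 0.11, and the mean levels differed by less than the SD of the KO replicates. This moved to 0.01 without KO replicate 2, to 0.16 without KO replicate 1 and to 0.23 without KO replicate 3.

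Ratios within a library set the same Pvr values against those of other family members, and are no separate evidence of the difference. Cadm1, a nectin-like adhesion molecule, was named after its values were seen, being at 32.7 to 35.2 FPKM in all 9 libraries. The ratio of Pvr to Cadm1 was 1.93, 1.51 and 2.06 in KO replicates 1 to 3, 2.12, 1.94 and 2.12 in WT, against 1.19, 1.09 and 1.10 in K262Q. The ratio of Pvr to Nectin2 was 4.97, 4.97 and 5.78 in KO, 5.93, 5.02 and 5.22 in WT, against 4.10, 3.04 and 4.26 in K262Q. Both ratios were lower in all 3 K262Q libraries than in any other library. With 3 samples a side, the smallest two-sided p of an exact permutation test is 0.1, so no such p is given.

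**Figure D2:**
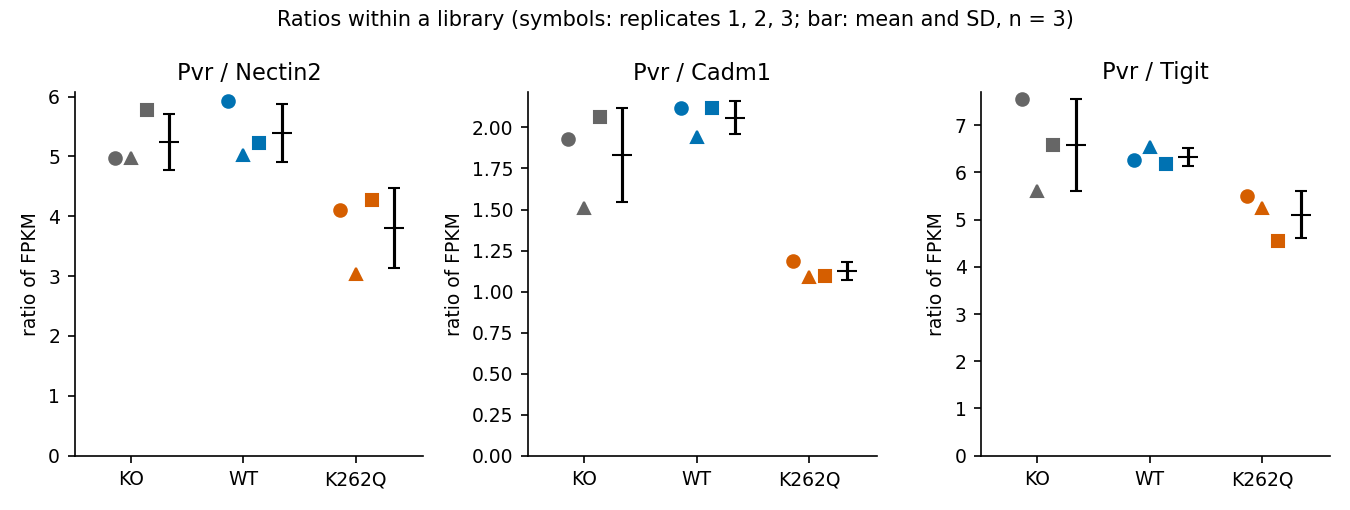
Ratios of FPKM within a library (vertical axes, from 0) of Pvr to Nectin2, Cadm1 and Tigit in the 3 groups; symbols are replicates and bars the mean and SD of 3. The K262Q ratios lie under all others in each panel, by the least for Tigit, where the highest K262Q value is 5.51 and the lowest KO value 5.60.

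Nectin2, the ligand of PVRIG and a weaker ligand of CD226, was measured in all libraries and passed no test. Replicates 1 to 3 measured 12.8, 10.4 and 12.2 FPKM in KO, 11.7, 12.7 and 13.4 FPKM in WT, against 9.80, 12.1 and 9.04 FPKM in K262Q. The lowest values were K262Q replicates 1 and 3, but K262Q replicate 2 lay within the range of both other groups. The log2 difference was -0.27 ± 0.11 between K262Q and WT (95% interval -0.54 to -0.01, limma adjusted p = 0.170), -0.18 ± 0.11 between K262Q and KO (adjusted p = 0.395) and 0.09 ± 0.11 between WT and KO (adjusted p = 0.938). A missed threshold does not show that the levels were alike, and the first interval runs to -0.54.

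Nectin1, an adhesion molecule that pairs with nectin-3 and is a herpesvirus entry receptor, was low. It measured 0.423, 1.34 and 0.552 FPKM in KO, 0.496, 0.995 and 0.734 FPKM in WT, against 1.80, 0.769 and 0.908 FPKM in K262Q. All 3 groups overlapped. The SD within groups was 33.6% to 64.5% of the mean, and counting error alone was put at 7.32% to 15.1% for its longest transcript of 5653 nt. In a fit without the filter, K262Q and WT differed by 0.29 ± 0.25 on the log2 scale (95% interval -0.30 to 0.88, limma adjusted p = 0.658), and K262Q and KO likewise by 0.29 ± 0.25 (adjusted p = 0.669).

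Nectin3, the trans partner of both nectin-1 and Pvr, was listed at 0 in 6 of the 9 libraries. The exceptions were KO replicate 1 at 0.169 FPKM, WT replicate 3 at 0.0934 FPKM and KO replicate 3 at 0.00552 FPKM. It was at 0 in all K262Q libraries, and no fold is given. Nectin4, the remaining nectin, did not exceed 0.0665 FPKM.

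Over the tested members, 1 of 2 passed the threshold in K262Q against WT, where 9.38% of all tested genes did; since Pvr was chosen on these values, nothing is read from the counts. In K262Q against KO it was 1 of 2, beside 1.26% of all genes (154 genes, and 1093 without KO replicate 2), and in WT against KO 0 of 2, beside 0.0819% of all genes (10 genes by limma, with 686 at an unadjusted p under 0.05). The groups did not overlap for 1 of the 2 in K262Q against WT (35.4% of all genes), 1 in K262Q against KO (26.9%) and 0 in WT against KO (9.23%).

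The lymphocyte receptors for these ligands were almost all absent, with 1 exception. Cd226 and Crtam were listed at 0 in every library, Cd96 reached at most 0.0516 FPKM and Pvrig 0.228 FPKM. Tigit, the inhibitory receptor for Pvr (ENSMUSG00000071552, chromosome 16, 43648867 to 43664146, minus strand), was measured in all of them. It was at 8.45, 9.24 and 10.7 FPKM in KO, 11.1, 9.78 and 11.3 FPKM in WT, against 7.29, 6.998 and 8.48 FPKM in K262Q. K262Q samples were all below WT samples, while K262Q replicate 3 just exceeded KO replicate 1. Tigit fell by 0.45 ± 0.10 from WT to K262Q (limma adjusted p = 0.0389) and differed by -0.28 ± 0.10 between K262Q and KO (adjusted p = 0.165) and by 0.17 ± 0.10 between WT and KO (adjusted p = 0.885). The first call held in 3 of 9 fits without a library, with adjusted p from 0.0299 to 0.117 over all alternatives. Among T and NK cell markers, Cd3e, Cd8a, Ncr1 and Klrb1c did not exceed 0.158 FPKM in any library, and Cd4 reached 0.663 FPKM.

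Of the 5 other nectins and nectin-like molecules, 2 were tested and neither passed in any comparison. Cadm1 differed by 0.06 ± 0.04 between K262Q and WT (limma adjusted p = 0.338). Cadm4 measured 1.35 to 2.49 FPKM. Among 22 partners at nectin-based junctions, 19 were tested. In K262Q against WT 1 of 19 rose and 0 fell, beside 9.38% of all tested genes that passed. These groups did not overlap for 6 of the 19, beside 35.4% of all tested genes, and nothing is read from these counts. In the other comparisons 0 passed. The median log2 difference of the 19 in K262Q against WT was -0.01, beside 0.03 over all tested genes. The gene that rose was Ctnnd1, p120-catenin, which holds cadherins at the membrane: 49.3 ± 1.03 FPKM in WT and 55.6 ± 2.19 FPKM in K262Q (0.17 ± 0.04, adjusted p = 0.0481). The groups overlapped between K262Q and KO, which measured 54.1 to 56.7 FPKM, and the call held in 1 of 9 fits without a library and in 2 of 9 other alternatives. Afdn, which encodes afadin, measured 43.7 to 59.6 FPKM and did not pass (-0.15 ± 0.09, adjusted p = 0.320). Of cadherins, Cdh2 measured 21.8 to 24.0 FPKM and Cdh1 was listed at 0.

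**Figure D3:**
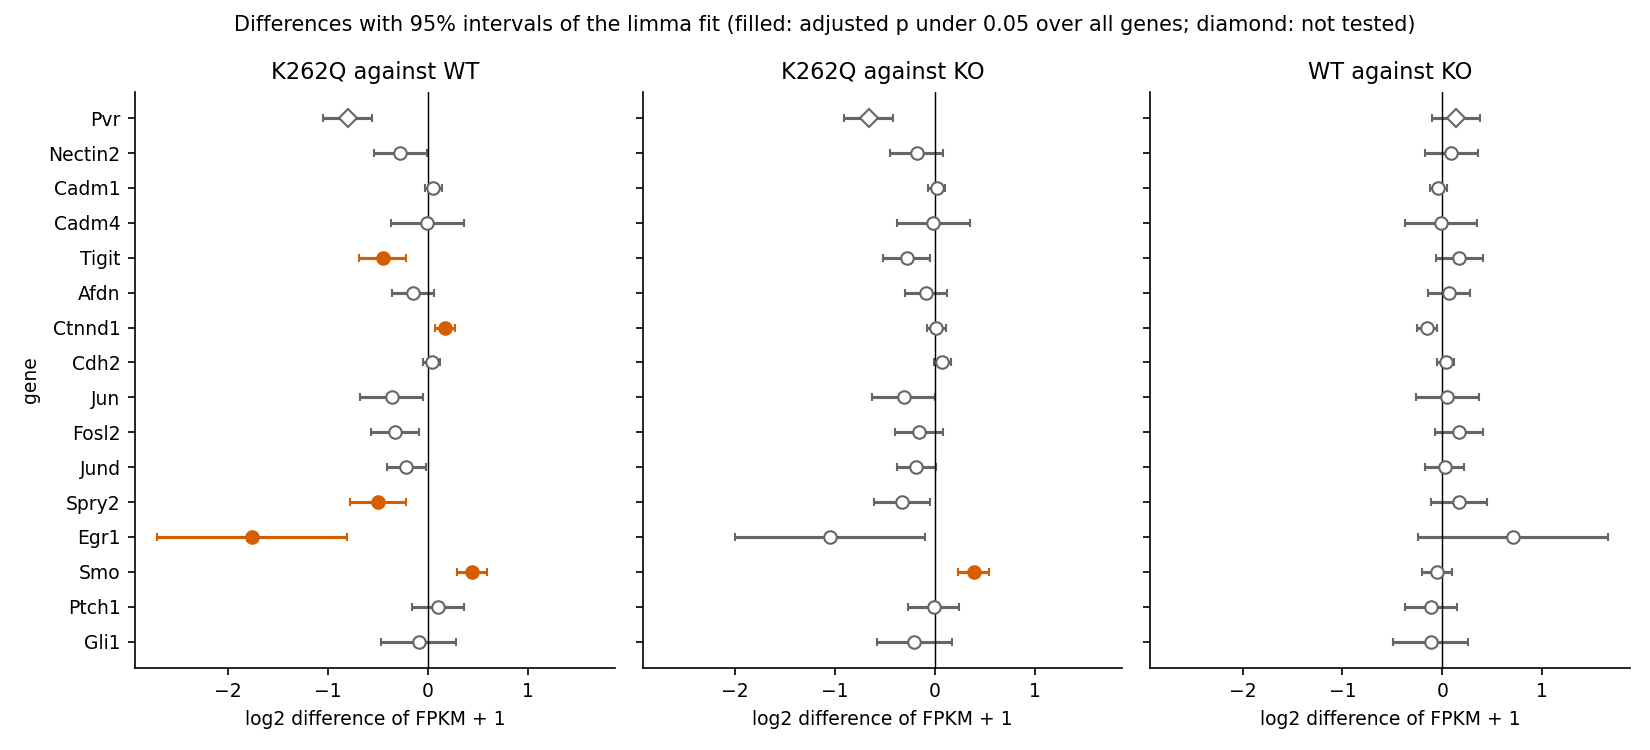
Log2 differences of FPKM + 1 (horizontal axis) with 95% intervals from the limma fit for Pvr, Nectin2, their relatives and genes of the lists, in 3 comparisons; filled points passed the threshold over all genes, and diamonds mark Pvr, which was chosen on these values and is not tested. Pvr lies at -0.80 and -0.66 in the comparisons with K262Q and at 0.14 between WT and KO, while Nectin2 lies between -0.27 and 0.09.

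Pathways known to act on Pvr expression in other settings were read from lists of their genes. Hedgehog signalling, which acts through GLI factors, had 5 of 11 genes tested, with Shh, Hhip and Gli2 listed at 0 in every library. Of the 5, 1 passed in K262Q against WT and 1 in K262Q against KO, beside 9.38% and 1.26% of all tested genes, and 0 in WT against KO. It was Smo, the signal transducer at the membrane, which rose: it measured 29.3, 33.3 and 28.8 FPKM in KO, 28.0, 29.4 and 30.3 FPKM in WT, against 38.1, 40.4 and 41.7 FPKM in K262Q, with no overlap between K262Q and the rest. The rise was 0.44 ± 0.07 over WT (limma adjusted p = 0.0171) and 0.39 ± 0.07 over KO (adjusted p = 0.0483), and these calls held in 5 and 1 of 9 fits without a library. The pathway's output genes did not pass in any comparison: in K262Q against WT, Ptch1 differed by 0.10 ± 0.11 (adjusted p = 0.587) and Gli1 by -0.09 ± 0.16 (adjusted p = 0.760).

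Of 8 genes, the AP-1 subunits and Atf3, 6 were tested and 0 passed in any comparison. Their median log2 difference was -0.24 between K262Q and WT, beside 0.03 over all genes. Jun differed by -0.36 ± 0.14 (limma adjusted p = 0.131) and Fosl2 by -0.33 ± 0.10 (adjusted p = 0.0881). Fosb differed by -0.26 ± 0.13 (adjusted p = 0.246) and Jund by -0.21 ± 0.08 (adjusted p = 0.145). Junb and Fosl1 differed the least, by -0.05 ± 0.05 (adjusted p = 0.533) and -0.04 ± 0.09 (adjusted p = 0.804). Fos and Atf3 were under the filter and not tested. Fos measured 0.482 to 0.904 FPKM in KO, 0.952 to 1.09 FPKM in WT, against 0.359 to 0.628 FPKM in K262Q. Of 14 ERK output genes, 13 were tested; 2 fell and 0 rose in K262Q against WT, where 9.38% of all tested genes passed, with a median of -0.19 beside 0.03 over all genes, and 0 passed in the other comparisons. Egr1, an immediate early transcription factor, went from 58.2 ± 5.32 FPKM in WT to 16.5 ± 1.46 FPKM in K262Q (-1.76 ± 0.41, adjusted p = 0.0410), and Spry2, a feedback inhibitor of receptor tyrosine kinase signalling, from 22.5 ± 0.118 to 15.6 ± 0.462 FPKM (-0.50 ± 0.12, adjusted p = 0.0448). Each call held in 2 of 9 fits without a library. Both genes, like Pvr, had their lowest KO value in replicate 2, where Egr1 measured 16.1 FPKM against 43.6 and 60.7 FPKM in the other KO libraries. This was not particular to them. Among the tested genes of these lists it also held for Myc, Phlda1, Dusp4, Dusp5, Dusp6, Spry4, Jun, Jund, Fosl1 and Fosl2, none of which passed. It did not hold for Etv4, Etv5, Ier3, Spred1, Spred2, Junb and Fosb.

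Pvr was compared with 9452 named genes of at least 2 FPKM by Pearson correlation over the 9 samples. The points share their 3 groups, so a gene with a K262Q difference scores high by that alone, and the values are a description. The 6 most alike were Zfpm2, a GATA cofactor (r = 0.995), Thbs2, a matrix thrombospondin (0.987), Cavin4 (0.987), Tcim (0.986), Mib2, a ubiquitin ligase (0.982), and Ern1, the stress sensor IRE1 of the endoplasmic reticulum (0.982). With group means removed, r for these 6 lay between 0.867 and 0.973, and KO replicate 2 was the lowest KO library in each. These deviations within groups were part of the values that picked the 6 genes, so they are no separate evidence. Zfpm2 measured 12.7 to 14.5 FPKM in KO, 14.1 to 14.4 FPKM in WT, against 10.9 to 11.3 FPKM in K262Q. The 3 most opposite were Pdia3, a protein disulfide isomerase (r = -0.994), Ppat, the first enzyme of purine synthesis (-0.992), and Cebpz (-0.992). For Nectin2, r with Pvr was 0.699, and 0.283 with group means removed. Nectin2 was not picked for a high r, so it is not ranked against those genes. Its own most alike genes were Manea (0.966), Gpatch1 (0.957) and Tbc1d22a (0.957), none of them among those of Pvr.

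**Figure D4:**
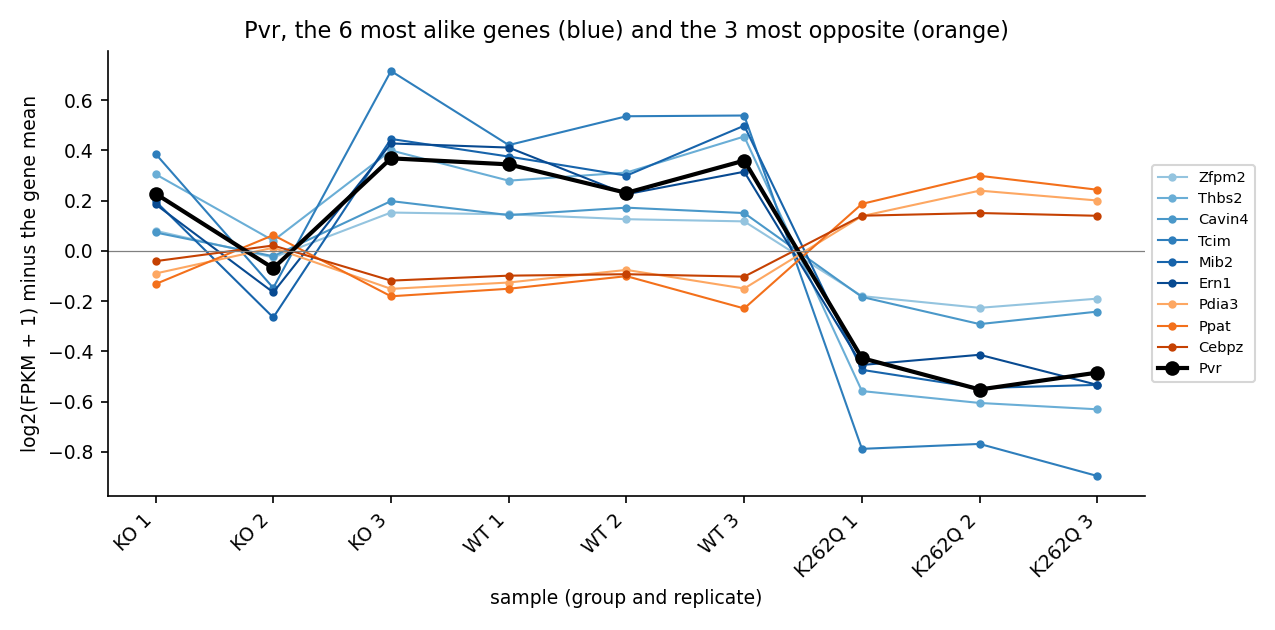
Log2(FPKM + 1) minus each gene's mean over 9 samples (vertical axis) in each sample for Pvr (black), its 6 most alike genes (blue) and 3 most opposite genes (orange). KO replicate 2 lies closer to the K262Q samples than the other KO libraries do, and Pvr there is 51.7 FPKM.

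Within 250 kb of Pvr on chromosome 7 lay 35 other genes, of which 6 were tested, Nectin2 among them. In K262Q against WT 1 rose and 1 fell, beside 9.38% of all tested genes, and 0 passed in the other comparisons. Tomm40, a subunit of the mitochondrial import pore that lies beside Nectin2, rose by 0.27 ± 0.05 (90.5 FPKM in WT, 109.5 FPKM in K262Q, limma adjusted p = 0.0220), a call that held in 4 of 9 fits without a library. The gene that fell was Gm16184, a processed pseudogene on the opposite strand between exons of Pvr (19911825 to 19912397). It measured 4.75, 4.27 and 4.53 FPKM in KO, 5.62, 3.33 and 4.01 FPKM in WT, against 2.57, 2.07 and 2.35 FPKM in K262Q, below both other groups in all 3 libraries. The fall was 0.66 ± 0.15 from WT on the log2 scale (adjusted p = 0.0410), and its call held in 1 of 9 fits without a library. Since the strand of counting is not stated, reads of this pseudogene and of unspliced Pvr RNA cannot be told apart. Bcam, Bcl3 and the Ceacam genes between Nectin2 and Pvr were under 1 FPKM on average. Gm16174, an antisense gene in the same interval, averaged 1.05 FPKM and was tested. It measured 1.34 ± 0.515 FPKM in KO, 1.31 ± 0.510 FPKM in WT, against 0.509 ± 0.248 FPKM in K262Q. It did not pass in K262Q against WT (limma adjusted p = 0.186) or against KO (adjusted p = 0.223).

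**Figure D5:**
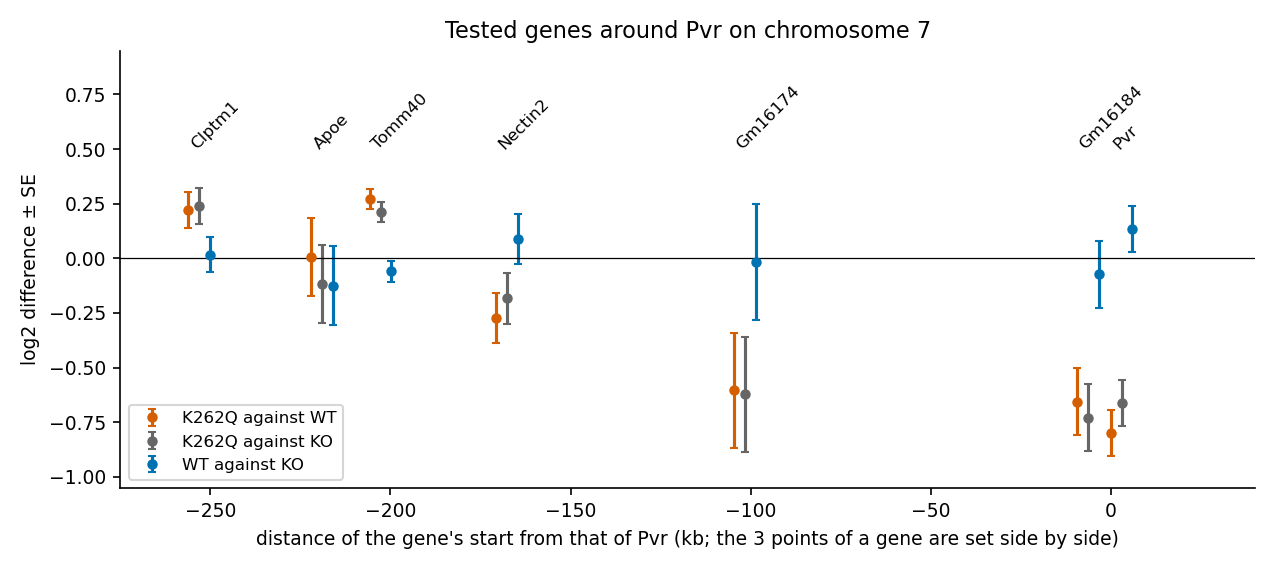
Log2 differences with SE (vertical axis) of the tested genes around Pvr against the distance of each gene's start from that of Pvr in kb, for 3 comparisons. Pvr and the pseudogene Gm16184 inside it lie at -0.66 or lower in both comparisons with K262Q, while Tomm40 lies above 0.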

How the data were processed

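Genes were measured by RNA sequencing in 9 samples (KO, WT and K262Q, 3 each). The authors deposited FPKM values, 1 per gene and sample; per the submitters' processing notes, STAR 2.5.4a, Cufflinks 2.2.1, Cuffdiff and mm10 were used. The annotation, the strand and any scaling between libraries are not given in the sources used here, and no read counts were used, so depth was read from the steps of low values in single-transcript genes and covers counting error only; it is approximate, since 38.2% to 41.1% of those values fell within 0.05 of a whole fragment.

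Log2(FPKM + 1) was fitted for the 12212 of 53796 genes averaging 1 FPKM or more with limma 3.58.1 in R 4.3.3 (3 groups in 1 fit, eBayes with trend, two-sided, Benjamini-Hochberg, threshold 0.05). A fold on FPKM + 1 understates that of low genes. Members and lists were chosen with earlier results of these data known. Pvr entered every fit, but its differences are given without p-values, since each comparison reuses values that chose it. All 102 list genes matched by symbol. The rule named, in each list, genes past the threshold (at most 5) and defining genes at 0, and the genes most correlated with each tested member; neighbours were taken within 250 kb. Other list genes named with values were chosen after these were seen, as were the cAMP response element and GC box. On simulated data of 12212 genes, 65.2% of 1.5-fold and 86.0% of 2-fold changes were recovered between groups of 3 set out as K262Q and WT. The changes were planted on the FPKM + 1 scale, with normal noise, only in genes whose mean log2(FPKM + 1) exceeded 2. Fewer genes were changed than were called in the data, and recovery in lower genes was not measured. Positions and lengths are from GENCODE M21 (GRCm38), with a record for 53702 genes. Alternatives were another pseudocount (0.1), other filters, 3 scalings, 2-group fits, no trend, the block, a minimum fold and leaving out each library. Python 3.11.15, pandas 2.3.3, numpy 2.4.6 and matplotlib 3.10.9 were used.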

Additional observations from a re-analysis of the deposited data

How the results depend on the processing

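Pvr kept its direction in all 3 comparisons under every alternative run, and so did Nectin2. Many of these alternatives could not change it. Other filters, 2-group fits, no trend, the block and leaving out a library of the group not compared keep the difference of group means as it is. Every K262Q sample was below all others for Pvr, so leaving out 1 library could not reverse its sign in the comparisons with K262Q. Without 1 library, the Pvr difference ran from -0.84 to -0.77 in K262Q against WT, from -0.79 to -0.57 in K262Q against KO and from 0.01 to 0.23 in WT against KO; over the same fits 0 to 1 members passed in each comparison with K262Q and 0 in WT against KO. In K262Q against KO, Pvr was chosen on values it shares. Its difference is fixed at -0.66 without a filter, with only the 2 groups compared, without the trend and with the replicate block. In each of these fits Pvr was no longer past the threshold, leaving 0 members, and the cause was not tested. Without 1 library it missed the threshold in 4 of 9 fits in K262Q against WT and in 8 of 9 in K262Q against KO. Because these values chose Pvr, neither its passes nor its misses are a test of it. The replicate numbers are not said to pair samples. Deviations of samples with the same number correlated at -0.036 to 0.078, beside -0.074 to 0.051 for other pairs. Whether such samples shared a preparation was not tested. Counts over all genes moved more. In K262Q against WT, 1145 became 353 without a filter and 142 with a 1.5-fold minimum, and 33 to 1580 without 1 library: 703 without KO replicate 1, 49, 43 and 341 without WT replicates 1, 2 and 3, and 276, 33 and 42 without K262Q replicates 1, 2 and 3. In WT against KO, 10 became 18 without a filter and 6 with the replicate block, and 9 to 18 without 1 library (16 without KO replicate 2, 18 without WT replicate 3). In K262Q against KO, 154 became 55 without a filter, 234, 297 and 236 after upper-quartile, trimmed-mean and total scaling, 10 with only the 2 groups, 37 without the trend, 5 with the replicate block and 40 with a 1.5-fold minimum, and 11 to 40 without any 1 library other than KO replicate 2, without which it was 1093. The share of calls that were higher in K262Q than in WT was 67.8%, and 43.4%, 57.1% and 38.4% after these 3 scalings; the share higher in K262Q than in KO went from 57.1% to 43.6% and 46.6% after upper-quartile and total scaling. Nectin1 and Nectin3 were fitted only without the filter. Nectin3 was at or near 0 in every library, which limits what a comparison can show, and no detection limit was computed for it.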
